A study of Danio rerio with 14 samples.

Results

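A group of 54 genes for the copying and mismatch repair of DNA was followed in the lateral rectus (LR), an extraocular muscle that pulls the eye toward its outer side, of adult zebrafish. They were picked by gene symbol from 31014 annotated features, and comprise 8 licensing genes, 5 genes for Cdc45 and GINS, 10 polymerase and primase genes, 12 genes for the clamp, its loader, RPA and flap removal, 8 deoxynucleotide genes, 5 genes for chromatin assembly and topoisomerase II, and 6 mismatch repair genes. All fish were sexually mature and carried an actin:GFP transgene, which labels muscle. The LR was uninjured in CON (4 libraries), and part of the right LR had been cut away 9 h before in H9 (5 libraries, also written as 9 h) and 18 h before in H18 (5 libraries, also written as 18 h). Each library came from LR tissue of many fish, pooled after laser microdissection of frozen head sections, so single animals cannot be told apart, and total RNA was sequenced after ribosomal RNA was depleted.

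The values are FPKM (fragments counted per kilobase of transcript, scaled to the size of the library), of which CuffDiff gave 1 value for each group, pooled over its libraries. FPKM are per length and can be compared between genes. The pooled FPKM carry no SD, and the authors' p-values and q-values were not used here. Depth per library is not known from the FPKM, and no difference below was tested across replicates. A gene is called higher or lower here when FPKM plus 0.1 differed at least 1.5-fold (0.58 on the log2 scale), which understates the change of genes with low FPKM. This limit describes size only. LR is a mixed tissue, and more or fewer cells of a type cannot be told apart from more or less RNA per cell.

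Before a cell divides, the origin recognition complex (ORC), Cdc6 and Cdt1 load the Mcm helicase on DNA, and Cdc45 and the GINS complex then turn it into a moving helicase. Polymerases alpha, delta and epsilon copy the strands, held by the PCNA ring, while thymidylate synthase and ribonucleotide reductase supply the building blocks and the MutS and MutL proteins correct mispaired bases. Many of these genes are controlled by E2F factors and are transcribed as cells enter S phase, and mature muscle fibers do not normally replicate their DNA. These roles are known mainly from yeast and mammals.

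The tissue check went as labelled, with very high muscle FPKM in CON. Summed over 19 skeletal muscle markers, FPKM was 20420 in CON, 2612 at 9 h and 1382 at 18 h, and 17 of the 19 were lower in each injured group than in CON, while mylpfb was listed at 0 in CON and H18. Over 24 leukocyte markers the sum was 132.3 in CON, 558.9 at 9 h and 540.9 at 18 h. Of these markers, 22 were higher in H9 than in CON, 23 were higher in H18 than in CON, and tnfa was listed at 0 in CON. Of all features listed above 0 in any group, 34.4% were higher and 28.0% lower in H9 than in CON. In H18 the shares were 29.5% and 32.3%. The sum over 5 erythrocyte markers was 205.3 in CON, 199.5 at 9 h and 143.1 at 18 h.

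At 18 h, most of the set stood above uninjured muscle. FPKM was higher in H18 than in CON for 44 of the 54 genes (81.5%) and lower for 3, with 7 within the limit. Over the 27890 features listed above 0 in any group, 29.5% were higher and 32.3% lower in this comparison. The median log2 fold change was 1.46 over the 54 genes and 0.00 over all these features. The 3 lower genes were rrm2b, msh3 and rnaseh2b.

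At 9 h the same set was divided. In H9 against CON, 17 genes (31.5%) were higher and 16 (29.6%) lower, and 21 lay within the limit. Both shares lie near those of all features, 34.4% higher and 28.0% lower. The median log2 fold change was −0.03 over the 54 genes and 0.11 over all features. An alternative chosen after the data were seen was scaling to the summed FPKM without the 3 most abundant features. It shifted H9 against CON by 0.19 on the log2 scale before the pseudocount, and less after it for genes of low FPKM. This scaling gave 20 higher, 12 lower and a median of 0.12, so the sign of the median depends on the scaling. The shares of all features under this scaling are not given here.

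Between the injured groups, 47 genes (87.0%) were higher in H18 than in H9, 2, among them rrm2b, were lower and 5 lay within the limit. Of all features, 17.7% were higher and 29.5% lower. The median log2 fold change was 1.53 over the 54 genes and −0.17 over all features. Both comparisons with CON share its value, and both comparisons with H18 share that of H18.

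Among the 13447 features with a mean of at least 1 FPKM, the shares higher and lower were 34.9% and 31.4% in H9 against CON, 32.8% and 34.7% in H18 against CON, and 15.5% and 24.7% in H18 against H9. Of the 54 genes, 34 reached this mean, some of them only through H18.

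**Figure D1:**
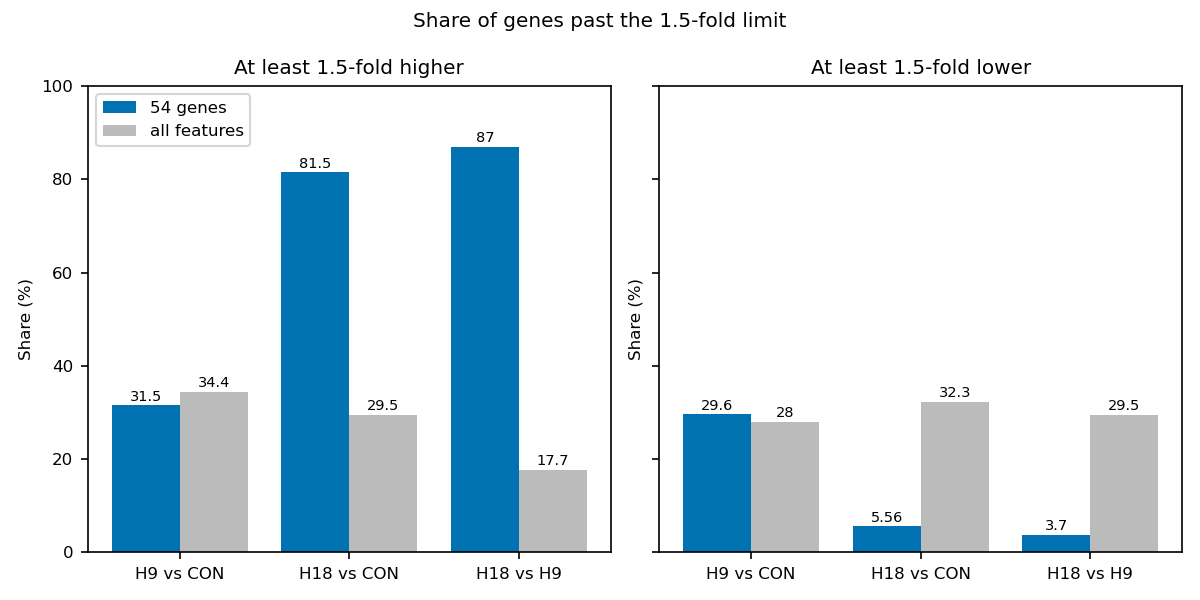
Share of genes (percent) at least 1.5-fold higher (left) or lower (right) in each comparison, for the 54 genes (blue bars) and for the 27890 features listed above 0 in any group (gray bars). The genes are close to all features in H9 vs CON (31.5% against 34.4% higher) and far above them in H18 vs CON (81.5% against 29.5%) and H18 vs H9 (87.0% against 17.7%).

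Levels in CON and H9 were close to those of all features, and those in H18 were not. The median over the 54 genes was 0.739 FPKM in CON, 0.770 at 9 h and 2.62 at 18 h, against 0.834, 0.761 and 0.696 FPKM over all features listed above 0. A level of 1 FPKM was reached by 23 genes (42.6%) in CON, 23 (42.6%) at 9 h and 46 (85.2%) at 18 h, against 47.0%, 45.6% and 44.1% of all features. Their summed FPKM was 99.4 in CON, 74.1 at 9 h and 221.9 at 18 h, with pcna alone at 23.6%, 11.7% and 18.9% of it. Without pcna the sums were 76.0 in CON, 65.5 at 9 h and 179.9 at 18 h. H9 therefore held the smallest total with or without this gene. This total is weighted to the most abundant genes. The sums of the licensing, Cdc45 and GINS, polymerase and chromatin groups were higher in H9 than in CON. Those of the clamp, deoxynucleotide and mismatch repair groups were lower.

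H18 was the group with the highest FPKM for 45 of the 54 genes (83.3%, against 26.2% of all features), and 42 (77.8%) were higher in H18 than in both other groups, against 11.0% of all features. The lowest value lay in H9 for 25 genes (46.3%, against 22.4% of all features) and in CON for 25 (46.3%, against 43.0%). The most frequent course, in 17 genes, was a value within the limit at 9 h and higher at 18 h than in both other groups (31.5%, against 6.25% of all features). Another 15 genes were higher at 9 h and higher again at 18 h (27.8%, against 3.62%), and 10 were lower than CON at 9 h but higher than CON at 18 h (18.5%, against 1.14%). Among these 10 were pcna, tyms, tk1, chaf1b, orc4, pole, prim2, rnaseh2a and the rrm2 locus on chromosome 19.

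**Figure D2:**
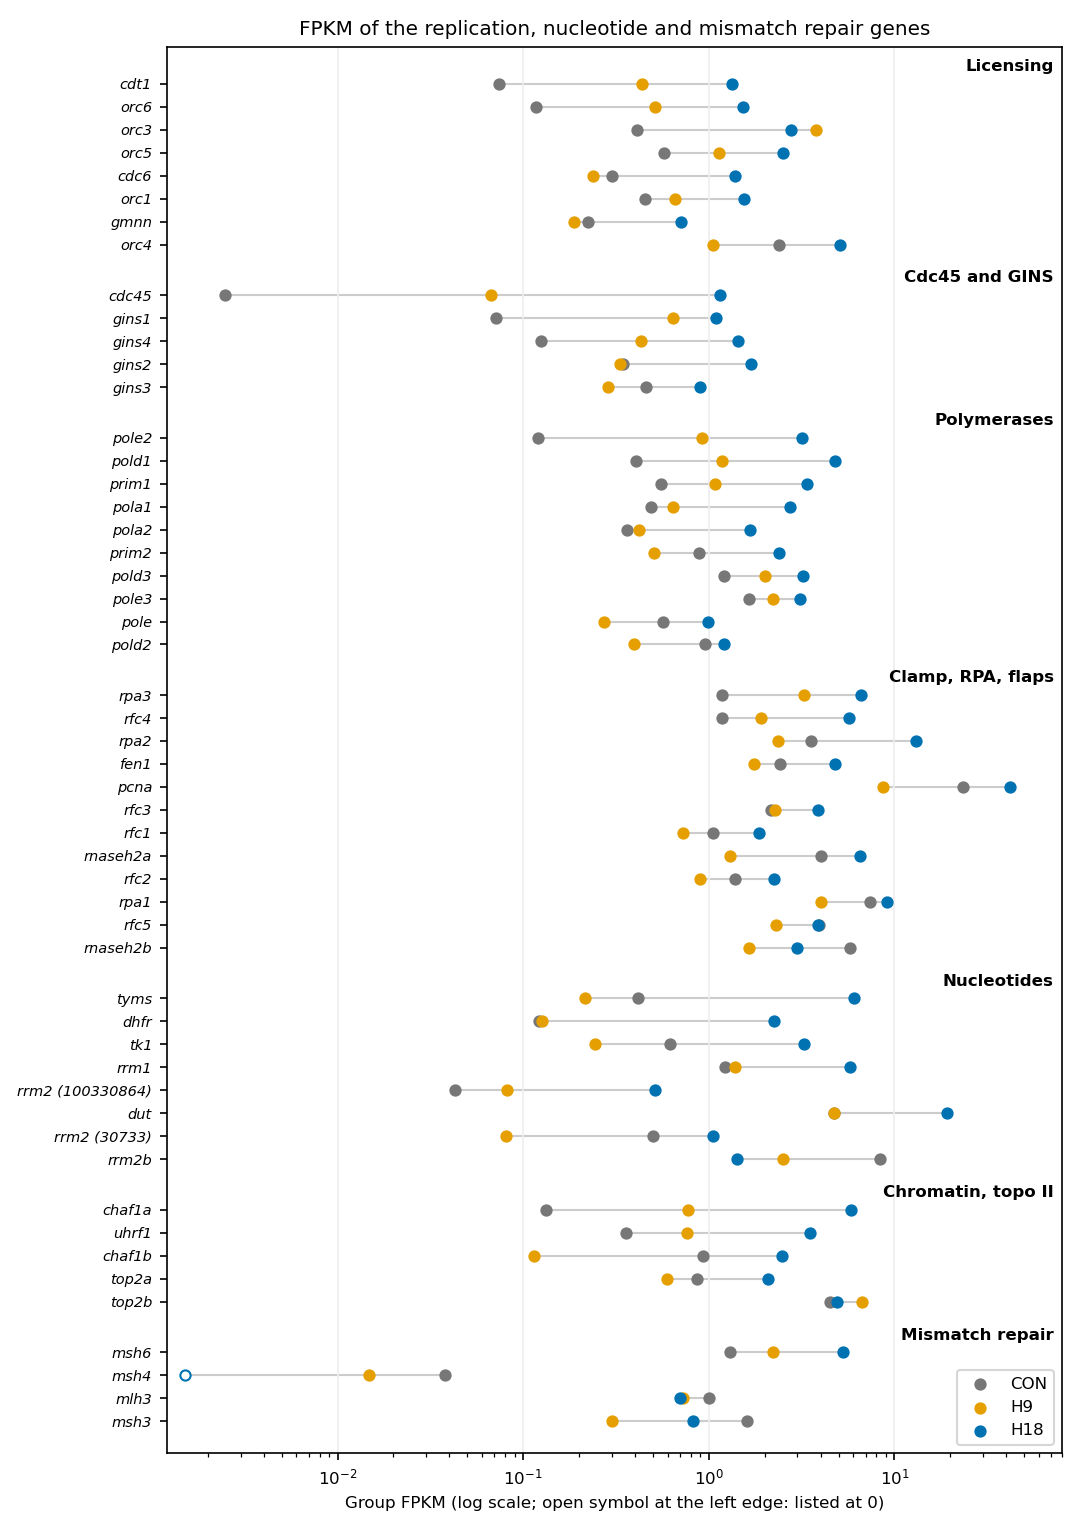
FPKM of 52 of the 54 genes (rows, grouped by role and ordered within a role by fold change in H18 against CON) in CON (gray), H9 (orange) and H18 (blue), on a log axis; each point is the 1 pooled value of a group, and the open symbol marks msh4, listed at 0 in H18. The blue point is farthest right for 44 of these genes, while the orange point is farthest left for 24.

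The leukocyte markers differed from these genes in timing. The leukocyte sum was 558.9 FPKM in H9 and 132.3 in CON. The 54 genes had their smallest sum in H9, with a median log2 fold change of −0.03 in H9 against CON. Between H18 and H9 the leukocyte sum differed little (540.9 and 558.9), with a median log2 fold change of −0.01 over the 24 markers, against 1.53 over the 54 genes. Between the injured groups, 3 of these markers were higher, 8 lower and 13 within the limit in H18 against H9. Of all features, 17.7% were higher and 29.5% lower. The macrophage marker mpeg1.1 had 4.37 FPKM in CON, 8.91 at 9 h and 24.3 at 18 h, while csf1ra, also of macrophages, had 9.66 in CON, 34.9 at 9 h and 35.5 at 18 h. The neutrophil marker mpx had 0.0635 FPKM in CON, 7.96 at 9 h and 4.92 at 18 h, and lyz had 0.723 in CON, 0.920 at 9 h and 1.65 at 18 h. The part of leukocytes and of the loss of muscle RNA in the values of these genes was not tested.

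**Figure D3:**
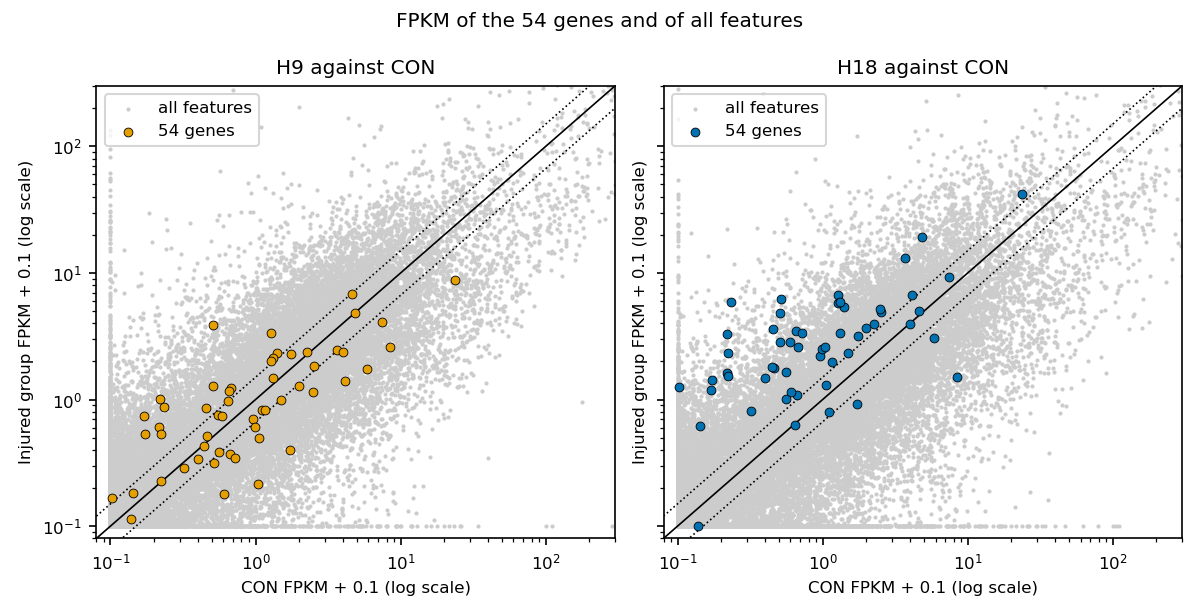
FPKM plus 0.1 in H9 (left) and H18 (right) against CON, both axes on a log scale that leaves out the most abundant features, for the 54 genes (colored points) and all features listed above 0 (gray); the solid line marks equality and the dotted lines the 1.5-fold limit. In H9 the genes fall on both sides (17 above, 16 below), and in H18 they lie above the upper line for 44 of 54.

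The counts in each role group below stand beside the shares of all features. In H9 against CON, 34.4% were higher and 28.0% lower. The shares were 29.5% and 32.3% in H18 against CON, and 17.7% and 29.5% in H18 against H9. Licensing genes decide where and when origins may fire. All 8 were higher in H18 than in CON (median log2 fold change 1.92), and 4 were higher and 1 lower in H9 than in CON. Their summed FPKM was 4.54 in CON, 8.03 at 9 h and 16.9 at 18 h. Without orc3, described below, it was 4.13 in CON, 4.22 at 9 h and 14.1 at 18 h. This near equality at 9 h also rests on orc4, which was lower than in CON and whose value is uncertain. cdt1, orc5 and orc6 were higher at 9 h than in CON, as was orc3. The median in H18 against CON was 1.0 with a pseudocount of 1 FPKM.

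The Mcm loader cdt1 (chromosome 7, positions 55217105 to 55238317 on GRCz10, as are all positions below) had 0.0739 FPKM in CON, 0.438 at 9 h and 1.33 at 18 h. Its inhibitor gmnn, the gene for geminin, which blocks a second round of licensing, had 0.223 in CON, 0.189 at 9 h and 0.709 at 18 h. The ratio of cdt1 to gmnn was thus 0.332 in CON, 2.32 at 9 h and 1.88 at 18 h. The activator gene stood below its inhibitor in CON and above it in both injured groups. All values of these genes in CON and H9 were under 1 FPKM, so the ratios there are uncertain. With a pseudocount of 1 FPKM the log2 fold change in H9 against CON was 0.42 for cdt1 and −0.04 for gmnn.

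The other Mcm loader, cdc6, had 0.301 FPKM in CON, 0.239 at 9 h and 1.39 at 18 h, and CuffDiff marked it as having too few reads for a test in H9 vs CON. The ORC ATPase orc1 had 0.455 in CON, 0.656 at 9 h and 1.56 at 18 h, and orc6, for the smallest subunit, had 0.118 in CON, 0.511 at 9 h and 1.53 at 18 h. Both were highest in H18.

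orc3 took a different course. It had 0.409 FPKM in CON, 3.80 at 9 h and 2.77 at 18 h, that is a log2 fold change of 2.94 in H9 against CON, the largest of the 54 genes at 9 h, and of −0.44 in H18 against H9. At 9 h the subunit gene orc4 lay on the other side of CON, and at 18 h above it, with 2.38 in CON, 1.06 at 9 h and 5.10 at 18 h. For orc4 the annotated span is 691.8 kb and 8 other features overlap it, so reads of neighbours may enter its value.

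The genes for Cdc45 and GINS, which with Mcm2-7 form the replicative helicase, had the smallest summed FPKM of the 7 role groups. Their sum was 1.0 FPKM in CON, 1.76 at 9 h and 6.29 at 18 h. All 5 were higher in H18 than in CON and than in H9, and the median log2 fold change against CON was 2.78 in H18 and 0.71 in H9. These medians depend on the pseudocount, and were 1.0 in H18 and 0.09 in H9 with 1 FPKM, and 3.44 in H18 and 1.71 in H9 with 0.01 FPKM.

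cdc45, whose product bridges the helicase to the polymerases, had 0.00247 FPKM in CON, 0.0674 at 9 h and 1.15 at 18 h. Its ratio of H18 to CON rests on a CON value near 0 and is not used, and on the log2 scale of FPKM plus 0.1 it was 3.61 higher in H18 and 0.71 higher in H9 than in CON. With pseudocounts of 1 and 0.01 FPKM the difference of H18 from CON was 1.1 and 6.54. CuffDiff marked this gene as having too few reads in H9 vs CON. Of the GINS subunits, gins4 had 0.124 in CON, 0.430 at 9 h and 1.44 at 18 h, and gins2 had 0.345 in CON, 0.331 at 9 h and 1.69 at 18 h.

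The remaining subunits were gins1, with 0.0713 FPKM in CON, 0.645 at 9 h and 1.1 at 18 h, and gins3, with 0.460 in CON, 0.285 at 9 h and 0.901 at 18 h. The annotated span of gins1 is 3010.5 kb and overlaps 93 other features, so its value is uncertain. The 4 subunits form a complex with 1 copy of each. Their highest FPKM was 6.46 times the lowest in CON, 2.26 times in H9 and 1.88 times in H18. The lowest in CON and the highest in H9 were both gins1. All 4 were under 1 FPKM in CON and H9, so the ratios there are uncertain.

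The genes for polymerases alpha, delta and epsilon and primase had a summed FPKM of 7.21 in CON, 9.64 at 9 h and 26.7 at 18 h. In H18, 9 of the 10 were higher than in CON and none was lower, with pold2 within the limit. In H9, 4 were higher (pole2, pold1, prim1 and pold3) and 3 lower (pold2, pole and prim2) than in CON. Of all features, 34.4% were higher and 28.0% lower in this comparison.

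Polymerase alpha and primase start each new strand with a short primer. The catalytic subunit gene pola1 had 0.491 FPKM in CON, 0.645 at 9 h and 2.74 at 18 h. The primase genes split at 9 h, since prim1 (catalytic) had 0.554 in CON, 1.08 at 9 h and 3.39 at 18 h, whereas prim2 (regulatory) had 0.885 in CON, 0.510 at 9 h and 2.40 at 18 h. This split depends on the pseudocount. With 1 FPKM the log2 fold change in H9 against CON was 0.42 for prim1 and −0.32 for prim2, both within the limit. In H18 the 4 genes of this complex lay between 1.67 and 3.39 FPKM, each above its value in the other groups.

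Polymerase delta extends the lagging strand. Its catalytic gene pold1 (chromosome 3, positions 16538030 to 16569444) had 0.407 FPKM in CON, 1.18 at 9 h and 4.76 at 18 h, a log2 fold change of 3.26 in H18 against CON. The accessory gene pold2 had 0.956 in CON, 0.395 at 9 h and 1.22 at 18 h, the smallest difference of the polymerase genes in that comparison, at 0.32.

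Polymerase epsilon copies the leading strand. Its catalytic gene pole had 0.570 FPKM in CON, 0.272 at 9 h and 0.995 at 18 h, while pole2, for its second subunit, had 0.120 in CON, 0.916 at 9 h and 3.20 at 18 h. On the log2 scale pole2 was 3.91 higher in H18 than in CON, and pole 0.71. The genes of 1 complex thus differed at 9 h in direction, with pole2 higher and pole lower than in CON. Both genes were under 1 FPKM in CON and H9, so this difference is uncertain. With a pseudocount of 1 FPKM the log2 fold change in H9 against CON was 0.775 for pole2. For pole it was −0.30, within the limit. The histone-fold subunit gene pole3 had 1.64 in CON, 2.21 at 9 h and 3.09 at 18 h.

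The clamp, its loader, RPA and the flap nucleases had a negative median at 9 h. In H9 against CON, 5 of these 12 genes were lower, 2 higher and 5 within the limit (median −0.58). This median was −0.39 with a pseudocount of 1 FPKM and −0.40 with the scaling without the 3 most abundant features. In H18 against H9 all 12 were higher. Their sum was 57.4 FPKM in CON, 31.1 at 9 h and 102.7 at 18 h. Against CON, 9 were higher in H18 and 1, rnaseh2b, was lower.

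pcna (chromosome 10, positions 40900618 to 40905492), for the sliding clamp that tethers polymerases and is widely used to mark proliferating cells, was the most abundant of the 54 genes in each group. It had 23.4 FPKM in CON, 8.64 at 9 h and 42.0 at 18 h. Its FPKM in H9 was thus 0.369 of that in CON, and its FPKM in H18 was 1.79 times that in CON and 4.86 times that in H9. The flap endonuclease gene fen1, whose product matures Okazaki fragments on the clamp, had 2.42 in CON, 1.74 at 9 h and 4.78 at 18 h.

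RPA coats the single-stranded DNA behind the helicase and is a trimer. rpa1 had 7.35 FPKM in CON, 4.03 at 9 h and 9.15 at 18 h, and rpa3 had 1.18 in CON, 3.25 at 9 h and 6.64 at 18 h. rpa2 had 3.57 in CON, 2.37 at 9 h and 13.1 at 18 h, but its annotated span is 1386.6 kb with 26 overlapping features. The highest of the 3 was 6.23 times the lowest in CON, 1.70 times in H9 and 1.97 times in H18. In H9 and H18 this ratio rests on rpa2, so it is uncertain there.

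The 5 RFC genes, for the loader that opens the clamp, summed to 9.72 FPKM in CON, 8.11 at 9 h and 17.6 at 18 h. rfc4 differed most, with 1.18 in CON, 1.91 at 9 h and 5.69 at 18 h, and rfc5 least in H18 against CON, with 3.93 in CON, 2.29 at 9 h and 3.85 at 18 h. The other 3 lay between 1.05 and 2.16 in CON and between 1.87 and 3.89 in H18.

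RNase H2 removes ribonucleotides from DNA, and its genes parted. The catalytic gene rnaseh2a had 4.03 FPKM in CON, 1.30 at 9 h and 6.55 at 18 h, and the accessory gene rnaseh2b had 5.75 in CON, 1.65 at 9 h and 2.98 at 18 h. Both were lower than CON at 9 h, and at 18 h only rnaseh2a, of these 2 genes, was above it. Their ratio (rnaseh2a to rnaseh2b) was 0.701 in CON, 0.790 at 9 h and 2.2 at 18 h.

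Deoxynucleotide genes were mostly higher in H18 than in both other groups. None of the 8 was higher in H9 than in CON, and 4 were lower. In H18 against H9, 7 were higher, with a median log2 fold change of 2.34 over the 8. In H18 against CON, 7 were higher and 1 lower (median 2.13). Their sum was 16.0 FPKM in CON, 9.33 at 9 h and 39.6 at 18 h.

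tyms (chromosome 7, positions 71293997 to 71300192) encodes thymidylate synthase, which makes dTMP. It had 0.414 FPKM in CON, 0.216 at 9 h and 6.09 at 18 h, so that it was 28.2 times as high in H18 as in H9 and 14.7 times as high as in CON. Its log2 fold change of 4.29 in H18 against H9 was the largest of the 54 genes. These ratios rest on values under 1 FPKM in CON and H9. A pseudocount of 1 FPKM brought the log2 fold change to 2.54 in H18 against H9 and 2.33 in H18 against CON. dhfr, for dihydrofolate reductase, which regenerates the folate that thymidylate synthase uses up, had 0.122 in CON, 0.127 at 9 h and 2.25 at 18 h.

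tk1, for the thymidine kinase that salvages thymidine, had 0.618 FPKM in CON, 0.243 at 9 h and 3.26 at 18 h. dut, for the enzyme that destroys dUTP and so keeps uracil out of DNA, had 4.75 in CON, 4.71 at 9 h and 19.3 at 18 h, and lies on an unplaced scaffold. All 4 thymidylate genes were thus at or below their CON value in H9, or within the limit of it, and at least 4.06 times it in H18. CuffDiff marked dhfr and tk1 as having too few reads in H9 vs CON.

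Ribonucleotide reductase turns ribonucleotides into deoxynucleotides and pairs the large subunit of rrm1 with a small subunit, either that of rrm2, made in S phase, or the p53-inducible one of rrm2b, which serves cells outside S phase. rrm1 had 1.22 FPKM in CON, 1.38 at 9 h and 5.78 at 18 h. The rrm2 locus on chromosome 19 had 0.502 in CON, 0.0807 at 9 h and 1.05 at 18 h, and that on chromosome 20 had 0.0429 in CON, 0.0821 at 9 h and 0.514 at 18 h. Reads of such close copies may be shared between them, so their sum is safer, at 0.545 in CON, 0.163 at 9 h and 1.56 at 18 h.

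rrm2b (chromosome 19, positions 33331011 to 33341350) ran against all of these at 18 h. At 9 h it was lower than in CON, as was the rrm2 locus on chromosome 19. It had 8.34 FPKM in CON, 2.50 at 9 h and 1.42 at 18 h, the only one of the 54 genes lower at 9 h, lower at 18 h than CON and lower at 18 h than at 9 h. It was the second most abundant of the 54 genes in CON, and its FPKM in CON was 5.87 times that in H18. The ratio of rrm2 (both loci) to rrm2b was 0.0653 in CON, 0.0651 at 9 h and 1.1 at 18 h, and that of rrm1 to rrm2b was 0.146 in CON, 0.551 at 9 h and 4.07 at 18 h. The 2 kinds of small subunit gene were therefore near equal in FPKM in H18, and far apart in the other groups.

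**Figure D4:**
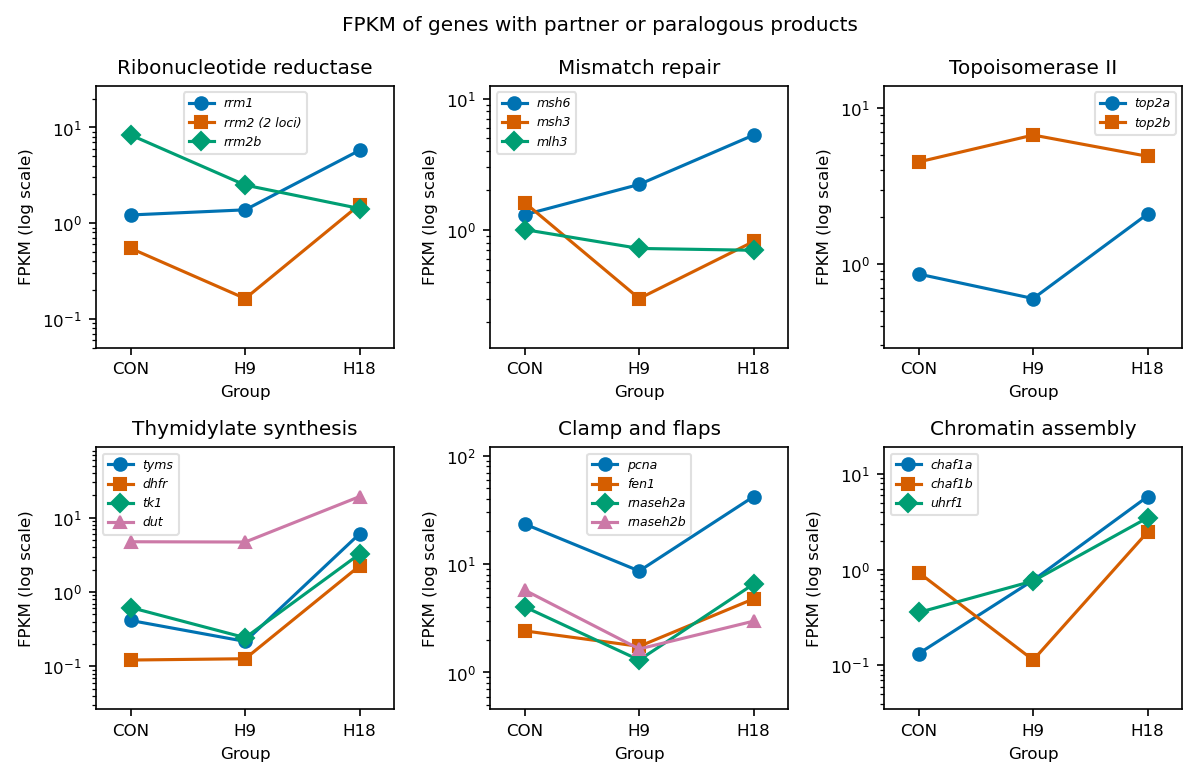
FPKM (log scale) in CON, H9 and H18 of genes whose products are partners or paralogs, each line 1 gene and each point the 1 pooled value of a group; the panels show ribonucleotide reductase, mismatch repair, topoisomerase II, thymidylate synthesis, the clamp with flap and RNA removal, and chromatin assembly. The lines of rrm2 and rrm2b meet in H18 (1.56 and 1.42 FPKM), and msh3 lies near msh6 in CON (1.62 and 1.31 FPKM) but below it in both injured groups.

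Chromatin assembly genes restore nucleosomes and DNA methylation behind the fork. chaf1a (chromosome 22, positions 22251771 to 22276944), for the large subunit of CAF-1, had 0.133 FPKM in CON, 0.776 at 9 h and 5.81 at 18 h, a log2 fold change of 4.67 in H18 against CON. chaf1b, for the middle subunit of the same complex, had 0.933 in CON, 0.114 at 9 h and 2.48 at 18 h. The ratio of chaf1a to chaf1b was 0.143 in CON, 6.81 at 9 h and 2.34 at 18 h. In pooled FPKM the order of these partners was thus reversed between H9 and CON. Both genes were under 1 FPKM in CON and H9, so the ratios there and this reversal are uncertain. With a pseudocount of 1 FPKM the changes of both genes in H9 against CON kept their direction but were smaller.

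uhrf1, which recruits the maintenance methyltransferase to newly copied DNA, had 0.358 FPKM in CON, 0.763 at 9 h and 3.49 at 18 h. It was higher in each injured group than in CON. Its values in CON and H9 were under 1 FPKM. Its log2 fold change in H9 against CON was 0.38 with a pseudocount of 1 FPKM, within the limit.

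Topoisomerase II untangles the finished strands and has 2 forms. top2a, the form of dividing cells, had 0.860 FPKM in CON, 0.599 at 9 h and 2.09 at 18 h, and top2b, which is also present in cells that do not divide, had 4.52 in CON, 6.73 at 9 h and 4.91 at 18 h. top2a was 2.43 times as high in H18 as in CON, and top2b lay within the limit in all 3 comparisons. Their ratio (top2a to top2b) was 0.190 in CON, 0.0889 at 9 h and 0.426 at 18 h, so top2b remained the more abundant form in all 3 groups.

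The mismatch repair genes had no common direction. Of the 6, 2 were higher, 1 lower and 3 within the limit in H18 against CON, with a median log2 fold change of −0.25, and their sum was 6.40 FPKM in CON, 5.31 at 9 h and 10.9 at 18 h. Of these 6 genes, 2 averaged at least 1 FPKM over the 3 groups and gave a median of 1.41 here. They are the 2 that were higher in H18, which enters this average, so the filter cannot decide the sign. msh3, at 1.62 FPKM in CON, did not reach the average, and msh4 was near 0 in all groups.

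Of the proteins that recognize errors, Msh6 is known for single mispairs and Msh3 for larger loops. msh6 had 1.31 FPKM in CON, 2.22 at 9 h and 5.28 at 18 h. msh3, in contrast, had 1.62 in CON, 0.301 at 9 h and 0.818 at 18 h. The ratio of msh6 to msh3 was 0.810 in CON, 7.38 at 9 h and 6.45 at 18 h. These genes were close to each other in uninjured muscle, and msh6 was well above msh3 in both injured groups.

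mlh3, of the MutL family whose products act after recognition, lay within the limit in all 3 comparisons. It had 1.01 FPKM in CON, 0.724 at 9 h and 0.701 at 18 h. msh4, known in mammals for meiosis, had 0.0378 in CON and 0.0147 in H9 and was listed at 0 in H18. Partners outside the 54 genes moved apart as well. exo1, for the exonuclease that removes the mispaired strand, had 0.146 in CON, 0.0709 at 9 h and 0.531 at 18 h, against 2.74, 0.926 and 0.573 in the same groups for pms1 and 0.593, 0.553 and 0.204 for pms2, both of the MutL family.

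Several genes lay close to the limit, so the counts depend on where it is set. In H9 against CON, top2b (0.56), rfc2 (−0.58), rpa2 (−0.57) and gins3 (−0.54) lay within it and were not called. Close to it but past it, and so called, were rfc4 (0.65), pold3 (0.69) and prim2 (−0.69), among others. In H18 against CON, rfc2 (0.66) and msh3 (−0.90) were past it, and pold2 (0.32) and mlh3 (−0.47) within it. Between H18 and H9, pold3 (0.65) was past it, and pole3 (0.47) and top2b (−0.45) within it. All are log2 fold changes.

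The genes around this set were read from lists that were also written by symbol. Of all features, 34.4% were higher and 28.0% lower in H9 against CON. The shares were 29.5% and 32.3% in H18 against CON, and 17.7% and 29.5% in H18 against H9. Of 12 genes for the Mcm helicase and its relatives, 10 were higher and 1 lower in H18 than in CON (median 2.21), and 6 were higher and 2 lower in H9 than in CON (median 0.78). The ring subunits were among the most abundant replication genes in H18. mcm2 had 2.02 FPKM in CON, 2.91 at 9 h and 15.0 at 18 h, and mcm5 had 1.24 in CON, 3.07 at 9 h and 10.9 at 18 h. mcm10, which helps to start the helicase, had 0.0114 in CON, 0.260 at 9 h and 1.60 at 18 h.

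Of 24 genes for firing kinases, fork protection and the S phase checkpoint, 16 were higher and 1 lower in H18 than in CON (median 1.68), and 7 were higher and 5 lower in H9 (median 0.29). The median in H18 against CON was 0.54 both with a pseudocount of 1 FPKM and over genes that averaged at least 1 FPKM. clspn, for the checkpoint mediator Claspin, had 0.162 FPKM in CON, 0.284 at 9 h and 2.96 at 18 h. The checkpoint kinase gene atr had 0.907 in CON, 1.09 at 9 h and 1.26 at 18 h and lay within the limit in all comparisons. The 1 lower gene was rad1, for a checkpoint clamp subunit, with 1.93 in CON, 0.701 at 9 h and 1.02 at 18 h.

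Genes for purine and pyrimidine synthesis and salvage, which feed both RNA and DNA, differed from the 54 genes in timing. Of these 30, 20 were higher and 7 lower in H9 than in CON (median 0.95), 18 were higher and 5 lower in H18 than in CON (median 1.23), and 10 were higher and 6 lower in H18 than in H9 (median 0.13, or −0.31 with the scaling without the 3 most abundant features). cad, whose product starts pyrimidine synthesis, had 3.14 FPKM in CON, 19.1 at 9 h and 11.6 at 18 h, and umps, for its last steps, had 0.554 in CON, 3.31 at 9 h and 3.40 at 18 h. atic, for the last steps of purine synthesis, had 2.28 in CON, 3.14 at 9 h and 21.0 at 18 h. dtymk, for thymidylate kinase, had 1.13 in CON, 0.166 at 9 h and 1.57 at 18 h. Like tyms and tk1 it was lower at 9 h than in CON, but at 18 h it lay within the limit of CON.

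Of 18 genes for E2F, Dp and pocket proteins and their MuvB partners, 8 were higher and 2 lower in H9 than in CON (median 0.48), and 11 were higher and 2 lower in H18 (median 0.83). Over those that averaged at least 1 FPKM the medians were −0.08 in H9 and 0.30 in H18. The activator genes e2f1 (0.156 FPKM in CON, 0.238 at 9 h and 0.706 at 18 h) and e2f2 (0.0412, 0.278 and 0.833 in the same order) were highest in H18. The pocket protein genes rb1 and rbl1 were higher in H18 than in CON, at 3.35 against 1.62 and 2.83 against 1.09 FPKM, while rbl2, known in mammals for quiescent cells, was lower, at 1.15 FPKM in H18 against 3.04 in CON.

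**Figure D5:**
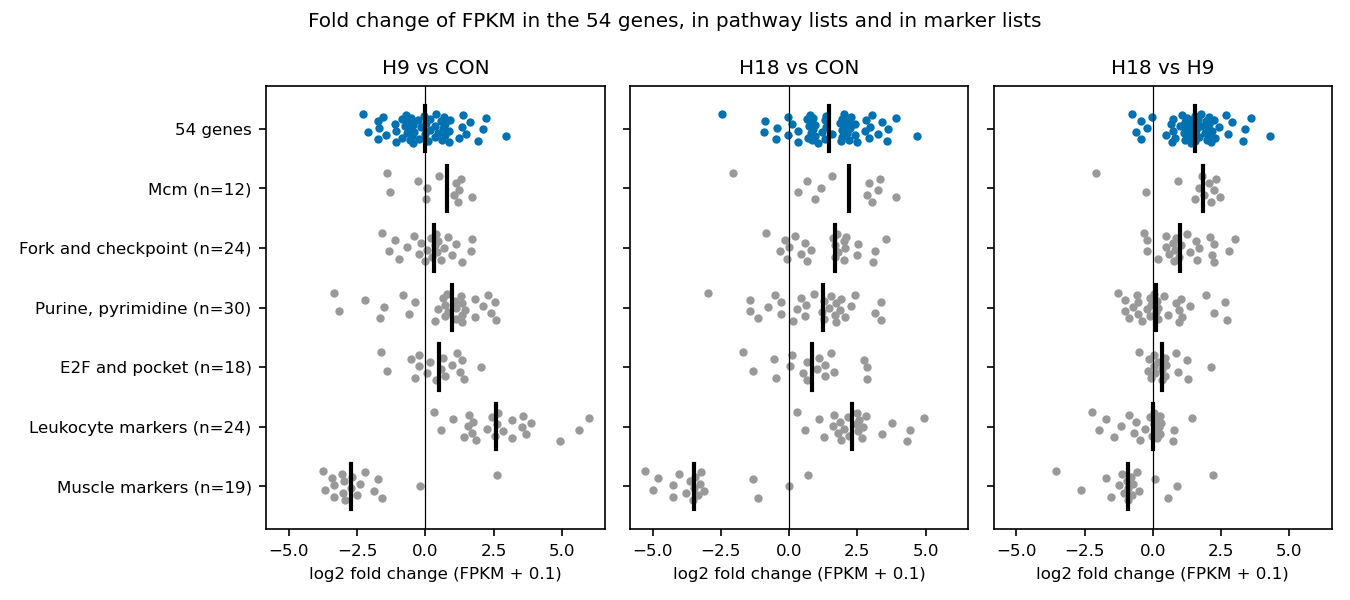
Log2 fold change of FPKM plus 0.1 (horizontal axis) of each gene in the 54-gene set (blue) and in 6 other lists (gray), with the median of each as a black bar, in H9 vs CON, H18 vs CON and H18 vs H9. The median of the 54 genes is −0.03, 1.46 and 1.53 in these comparisons, that of the leukocyte markers 2.58, 2.31 and −0.01, and that of the muscle markers −2.73, −3.48 and −0.89.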

How the data were processed

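The authors aligned reads to GRCz10 with TopHat2 2.0.13 and Bowtie2 2.2.1 after FastQC 0.11.3, per the submitters' processing notes. CuffDiff 2.2.1 (with Cufflinks) then gave the deposited FPKM, with upper-quartile normalization, as 1 value per group (4, 5 and 5 libraries). The 3 comparison tables also hold the authors' fold changes, p-values and q-values, none of which were used here. A count table with 14 columns was not used, because no column name matched a library, so the tests across libraries that had been planned were replaced by a description of the group FPKM, and depth per library is not given here.

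Members were found by symbol and all enter the counts, sums and medians, but 2 of them are not reported here by name. Full values are given for genes set by role, for those that differed most in each role group and for those lower at both times; other genes with values (orc3, gins4, prim1, pole3, rpa1, rnaseh2a, chaf1b, msh4 and the genes of the other lists) were chosen after their values were seen. Members and lists were chosen with earlier results of these data known. and1 was dropped from the fork list after its values were seen, since in zebrafish the symbol names a fin gene. Some symbols of the lists were not analysed here. Log2 fold changes use a pseudocount of 0.1 FPKM. For 12 features, none of them members, FPKM differed between tables. Positions were counted from 1. The alternatives were pseudocounts of 1 and 0.01, a mean of at least 1 or 5 FPKM, a fold of 2, centring on the median and a scaling without the 3 most abundant features. Counting was tested on simulated data. Python 3.11.15, numpy 2.4.6, pandas 2.3.3 and matplotlib 3.10.9 were used.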

Additional observations from a re-analysis of the deposited data

How the results depend on the processing

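Shares of all features are given above for the main limit and for a mean of at least 1 FPKM, and not for the other settings. Counts under those settings therefore describe the genes of the set alone. With a pseudocount of 1 FPKM, 6 genes were higher and 8 lower in H9 than in CON, the median log2 fold change was 0.85 in H18 against CON and 0.92 in H18 against H9, and 0 genes were lower in H18 than in H9. A pseudocount of 0.01 moved none of the 3 medians or 6 counts beyond 1.5 times. Among the 34 genes that averaged at least 1 FPKM, 11 were higher in H9 than in CON, 29 higher in H18 than in CON, and 30 higher and 1 lower in H18 than in H9. At a mean of at least 5 FPKM 5 genes were left. Of these, 0 were higher and 2 lower in H9 than in CON, 3 higher and 0 lower in H18 than in CON (median 0.84), and 4 higher and 0 lower in H18 than in H9. Among them, dut and rpa2 reached this mean only through H18. Since H18 enters the mean, counts under both filters on the mean cannot decide how many genes were higher in H18. The chromatin group then held top2b alone, with −0.45 in H18 against H9. At a fold of 2, 9 genes were higher and 10 lower in H9 than in CON, 1 was lower in H18 than in CON and 0 were lower in H18 than in H9. Centring on the median of all features left 1 gene lower in H18 than in H9. The scaling without the 3 most abundant features, chosen after the data were seen, shifted the log2 ratios of FPKM before the pseudocount. The shifts were 0.19 in H9 vs CON, −0.26 in H18 vs CON and −0.45 in H18 vs H9. This scaling left 38 genes higher in H18 than in CON, and 41 higher and 4 lower in H18 than in H9. Lists of genes with low FPKM have medians that move with the pseudocount and the filter, as given beside some of them. Others moved too. With a pseudocount of 1 FPKM, the median in H18 against CON was 1.36 for the Mcm list. For the homologous recombination and Fanconi list it was 0.51. For the deoxynucleotide genes the median in H18 against H9 was 1.52 with this pseudocount. Fewer genes enter under the filters on the mean; the other causes were not tested. No paired analysis was possible because the deposited FPKM are pooled by group and carry no replicate number. The planned count tests, with their other normalizations, count filters, left-out libraries, 2-group fits and replicate block, were not run, since no count column was matched to a library. With 1 value per group, the spread between libraries is unknown for every value given.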

Other observations

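Genes of other DNA repair pathways, listed by symbol, were also read. Of all features, 34.4% were higher and 28.0% lower in H9 against CON, and 29.5% and 32.3% in H18 against CON. Of 28 genes for homologous recombination and the Fanconi pathway, which mends crosslinks and broken forks, 19 were higher and 3 lower in H18 than in CON (median log2 change 1.15), and 10 were higher and 7 lower in H9 than in CON (median 0.24). fancd2, for the protein that is ubiquitinated at stalled forks, had 0.259 FPKM in CON, 0.395 at 9 h and 1.69 at 18 h, and its partner gene fanci had 0.166 in CON, 0.209 at 9 h and 1.32 at 18 h.

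Of 15 genes for base excision and single-strand break repair, 9 were higher and 1 lower in H18 than in CON (median 1.0), and 5 were higher and 3 lower in H9 than in CON (median 0.26). xrcc1, for a scaffold of this repair, had 0.727 FPKM in CON, 1.18 at 9 h and 3.27 at 18 h. unga, for a uracil glycosylase, had 1.01 in CON, 0.536 at 9 h and 2.22 at 18 h. The gene lower in H18 was nthl1, for a glycosylase of oxidized bases, with 1.09 in CON, 0.446 at 9 h and 0.450 at 18 h. All genes given here were chosen after their values were seen.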
